A study of Danio rerio with 4 samples.

Results

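The sodium-potassium ATPase (Na,K-ATPase) is the membrane pump that carries sodium out of the cell and potassium into it at the expense of ATP. It is made of a catalytic alpha subunit, which binds the ions and splits ATP, and a glycosylated beta subunit, which is needed for the alpha subunit to fold and to reach the plasma membrane. In the brain the pump restores the ion gradients that action potentials and synaptic currents run down, and those gradients in turn drive the uptake of glutamate and the export of calcium. Zebrafish carry several genes for each subunit type, and many of them stand as pairs of duplicates marked a and b.

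Here 10 alpha and beta subunit genes were followed out of 8793 gene symbols on the array. They were taken by symbol, as every probe set that the platform's probe-to-gene table pairs with 1 of the 10 names. In all, 15 probe sets covered 9 of the genes, namely the alpha subunit genes atp1a1b, atp1a3a and atp1a3b and the beta subunit genes atp1b1a, atp1b1b, atp1b2a, atp1b2b, atp1b3a and atp1b3b. The tenth gene, atp1a2a, had no probe set in that table. The gene atp1b2a had 4 probe sets, atp1a3a, atp1b1a and atp1b3a had 2 each, and the other 5 genes had 1. Where a gene had several, they are called the first, the second and so on in the order of the rows of the plot of signals, whose labels hold their identifiers.

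The arrays held RNA pooled from the brains of adult zebrafish, hybridized to Affymetrix Zebrafish Genome Arrays. Cold-acclimated fish were cooled by 1 degree per hour and then kept at 10°C for 10 days (label "cold-stressed", 2 arrays), and normal fish were raised at 28°C (2 arrays). No strain, age or transgene is given for either group, and the methods give equal numbers of both sexes in each. The arrays are called cold 1, cold 2, normal 1 and normal 2 after their labels, and a set means 1 cold and 1 normal array of equal number. Each array holds a pool, so single fish were not measured. Only 2 arrays per condition were analysed here, fewer than the RNA sets from separate acclimation experiments that the text of the study describes. The labels do not tie the array numbers to those experiments. The p-values below therefore rest only on the spread between arrays of pooled RNA, part of which may be technical. For each probe set, that spread was in part taken from the other probe sets.

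Each probe set has 1 signal per array, a linear MAS5 intensity, and the median signal of an array lay between 96.3 and 102. A probe set was tested if its mean log2 signal was at or above the 40th percentile, which left 9301 of 15502 probe sets. The arrays did not group by their labels. Over the 9301 probe sets, the smallest median absolute log2 difference was between cold 1 and normal 2 (0.25), and the largest was between normal 1 and normal 2 (0.41). Cold 1 and cold 2 differed by at least 2-fold at 11.9% of these probe sets, and normal 1 and normal 2 at 15.2%, against 2.8% for cold 1 and normal 2. At 69.6% of all tested probe sets the ratio of cold to normal had opposite directions in the 2 sets. The labels were kept as given, and whether labels of 2 arrays were exchanged was not tested. An exchange within a set would turn the direction of that set's ratios and change every difference of cold minus normal. For that reason each signal is printed array by array. The range of each member's difference as 1 array at a time was left out is also given. That range does not show what an exchange would do, even where it is narrow. Neuron markers chosen for the brain (elavl3, snap25a and others) were above the filter at all 7 genes, and photoreceptor markers at none of the 4 on the array.

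Of the 15 Na,K-ATPase probe sets, 14 passed the filter, and these lay at or above the 70.4th percentile of signal on every array. The probe set of atp1b2b did not pass. It had signals of 67.8 and 65.2 on cold 1 and cold 2, against 66.3 and 67.4 on normal 1 and normal 2, below the median signal of each array. No detection calls were used here, so whether this transcript was present cannot be read from it.

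**Figure D1:**
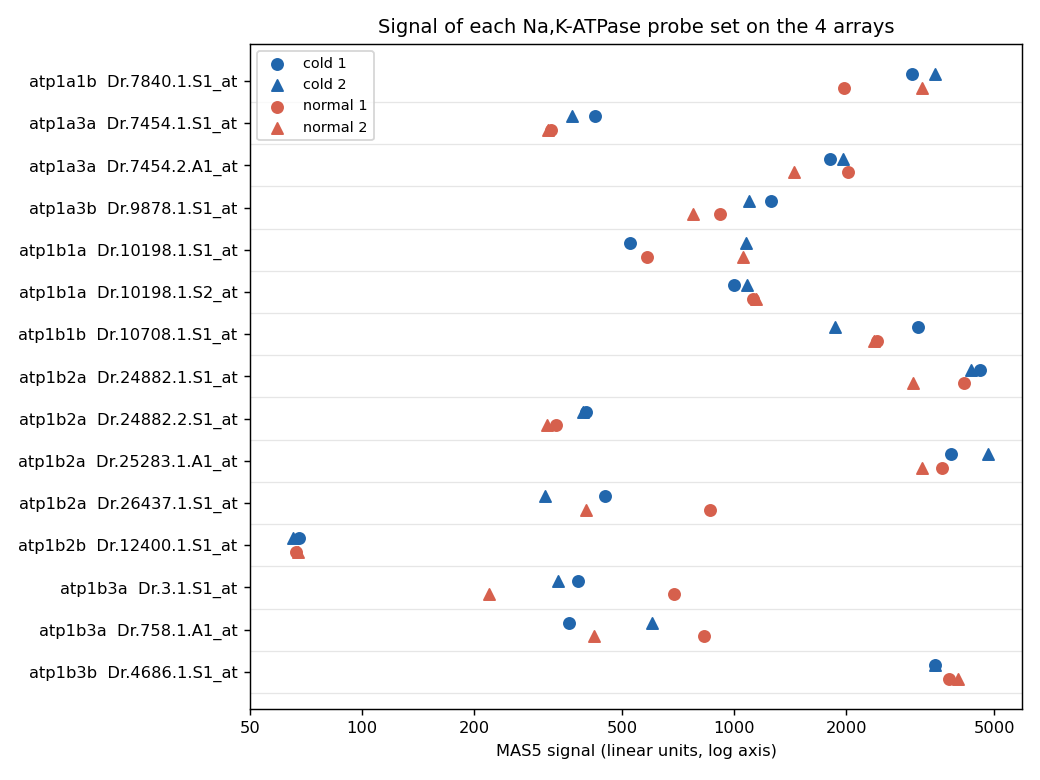
MAS5 signal (log axis) of each Na,K-ATPase probe set on cold 1 and cold 2 (blue, upper position in a row) and on normal 1 and normal 2 (red, lower position), circles for arrays numbered 1 and triangles for arrays numbered 2, with 1 point per array and no averaging. The blue points lie right of both red points at atp1a3b, at the first probe set of atp1a3a and at 3 probe sets of atp1b2a, and left of them at atp1b3b and at the second probe set of atp1b1a.

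None of the 14 tested probe sets differed between cold-acclimated and normal brains at an adjusted p under 0.05 from limma. Of all 9301 probe sets, 0% passed that threshold. At an unadjusted p under 0.05 there were 0 among the 14 and 46 among the 9301. For the 9301 this was far below the share of 0.05 that evenly spread p-values would give. The reason was not tested, and arrays of the same label lay far apart, as given above. The lack of calls therefore does not show that no transcript changed. The log2 differences, cold minus normal, ran from -0.65 to 0.48, with standard errors from 0.22 to 0.59. Each standard error drew on a trend of variance with signal over all tested probe sets, not only on the probe set's own arrays. For example, log2 signals at the second probe set of atp1b2a had standard deviations of 0.02 (cold) and 0.05 (normal). Its standard error was 0.38. The 95% intervals, not adjusted for the number of probe sets, reached from 1.45-fold to 2.68-fold either side of the estimate. They are not the limit of what could be called at the adjusted p. Over all 9301 probe sets, log2 differences as high as 2.49 were not called. An exact two-sided permutation test of 2 arrays against 2 cannot give a p below 0.33 for any single probe set.

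By position of the arrays, 5 of the 14 probe sets had both cold arrays above both normal arrays, against 9.2% of all tested probe sets. These 5 belong to 3 genes, atp1a3a, atp1a3b and atp1b2a, and probe sets of 1 gene are not independent. A further 2 had both cold arrays below both normal arrays, at atp1b1a and atp1b3b, against 6.45% of all, and the other 7 overlapped. The same 5 and the same 2 probe sets stood apart after quantile normalization and after median centring. Higher on the cold array in both sets were 6 of the 14, against 17.4% of all probe sets, and lower in both sets were 3, against 13% of all. The members are few and share genes, so these counts describe them and carry no test.

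The alpha3 genes were higher on both cold arrays at 2 of their 3 probe sets. Alpha3 is the catalytic subunit that, in mammals, is typical of neurons, and zebrafish hold it as atp1a3a and atp1a3b. At the single probe set of atp1a3b the signals were 1259 on cold 1 and 1098 on cold 2, against 918 on normal 1 and 775 on normal 2. Both cold arrays exceeded both normal arrays, and the lower cold signal was 1.2-fold the higher normal one. The log2 difference was 0.48 with a standard error of 0.37 (adjusted p = 1.0 from limma), or 1.39-fold with a 95% interval from 0.753 to 2.58. The ratios within the sets were 1.37 in set 1 and 1.42 in set 2. The labels do not state a pairing, and with the numbers crossed the ratios were 1.62 (cold 1 over normal 2) and 1.2 (cold 2 over normal 1). Of the 14 probe sets, this one had the highest positive log2 difference, and it stayed between 0.36 and 0.60 as each array was left out in turn.

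The duplicate atp1a3a was read by 2 probe sets that did not give the same order. At the first the signals were 424 and 366 on cold 1 and cold 2, against 322 and 317 on normal 1 and normal 2, so the groups stood apart, with a log2 difference of 0.30 and a standard error of 0.39 (adjusted p = 1.0 from limma). That difference was 0.20 without cold 1 and 0.41 without cold 2. The second had 1813 and 1961 on cold 1 and cold 2, against 2029 and 1446 on normal 1 and normal 2. Here normal 1 was the highest array and normal 2 the lowest, the groups overlapped, and the log2 difference of 0.14 (standard error 0.33) became -0.11 without normal 2 and 0.38 without normal 1. The set 1 ratio was 0.894 at the second probe set and 1.32 at the first, while the set 2 ratios were 1.36 at the second and 1.15 at the first.

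The alpha1 gene atp1a1b encodes a catalytic subunit of the kind that, in mammals, nearly all cells carry. Its probe set had 3009 and 3474 on cold 1 and cold 2, against 1971 and 3205 on normal 1 and normal 2. Normal 1 was the low array and the other 3 lay near each other. The log2 difference was 0.36 with a standard error of 0.32 (adjusted p = 1.0 from limma), and it was 0.01 without normal 1 and 0.71 without normal 2. All 4 alpha probe sets, of 3 genes, thus had a positive log2 difference, as had 5370 of all 9301 tested probe sets. Their median was 0.33, beside a median of 0.04 over all tested probe sets.

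Among the beta subunits, atp1b2a had the most probe sets and 3 of its 4 were higher on both cold arrays. Beta2 is known in mammals as a subunit of glia and neurons that also acts in cell adhesion. At the first the signals were 4580 and 4332 on cold 1 and cold 2, against 4142 and 3030 on normal 1 and normal 2. At the third they were 3825 and 4804 on cold 1 and cold 2, against 3618 and 3207 on normal 1 and normal 2. The lowest cold signal exceeded the highest normal signal by a small margin, 1.05-fold and 1.06-fold at these probe sets, and normal 2 was the low array at both. The second had 399 and 392 on cold 1 and cold 2, against 331 and 314 on normal 1 and normal 2, with arrays of 1 label within 1.05-fold of each other and a margin of 1.18-fold. The log2 differences of the first, the third and the second were 0.33, 0.33 and 0.29, with standard errors of 0.25, 0.24 and 0.38 (adjusted p = 1.0 for each from limma). The value of the first was 0.10 without normal 2 and 0.56 without normal 1. For the third it was 0.17 without cold 2 and 0.50 without cold 1, and for the second it stayed between 0.26 and 0.33.

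The fourth atp1b2a probe set went the other way, and it is the only probe set of this gene that the platform annotation ties to a RefSeq transcript. It had 449 and 310 on cold 1 and cold 2, against 859 and 401 on normal 1 and normal 2. Normal 1 was 2.14-fold normal 2, and cold 1 lay above normal 2, so the groups overlapped. The log2 difference was -0.65 with a standard error of 0.51 (adjusted p = 1.0 from limma), and it was -0.10 without normal 1, -0.39 without cold 2, -0.92 without cold 1 and -1.20 without normal 2. With probe sets of 1 gene in opposite directions, a direction for atp1b2a as a gene cannot be given from these arrays. The probe sequences were not used here, so which part of the transcript, or which related transcript, each probe set reads was not tested.

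**Figure D2:**
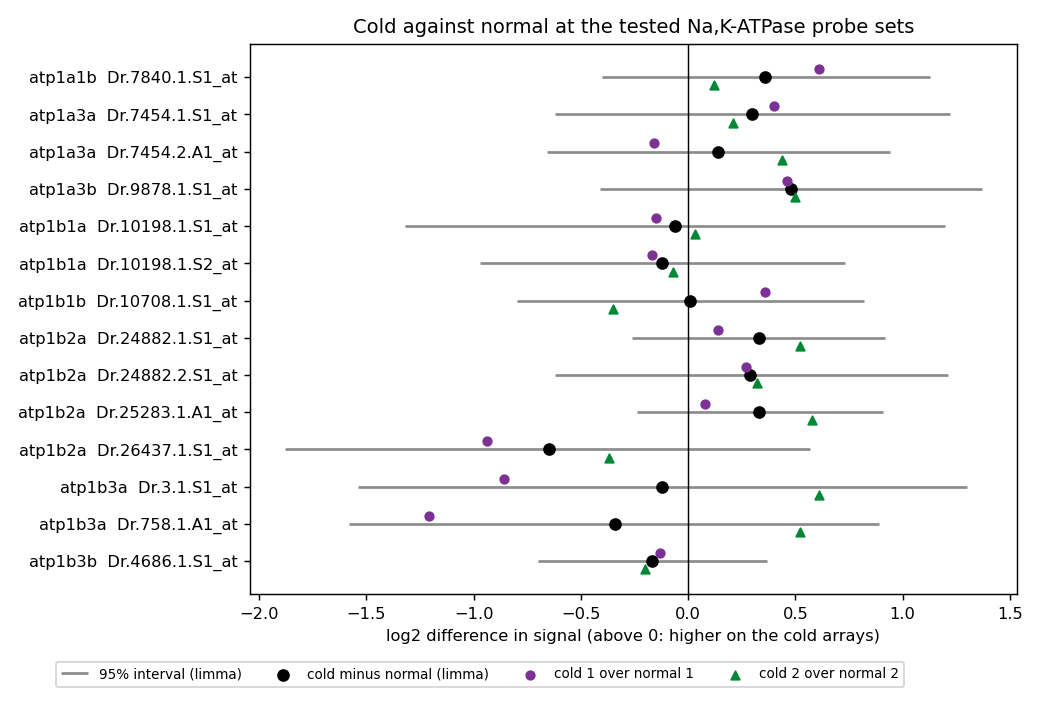
Log2 difference in signal, cold minus normal, at the 14 tested Na,K-ATPase probe sets (black points, limma) with 95% intervals (grey lines), and the log2 ratio of cold 1 over normal 1 (purple circles) and of cold 2 over normal 2 (green triangles). Every interval includes 0, and the purple and green points lie on opposite sides of 0 at 5 probe sets.

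The beta1 genes showed little difference between the conditions, and a large one between arrays of the same label at 2 probe sets. Beta1 is the beta subunit most widely found with the pump in mammals. At atp1b1a, the second probe set had 1001 and 1084 on cold 1 and cold 2, against 1124 and 1142 on normal 1 and normal 2. Both cold arrays were below both normal arrays, but the highest and the lowest of the 4 differed by only 1.14-fold, and the log2 difference was -0.12 with a standard error of 0.36 (adjusted p = 1.0 from limma). It was -0.06 without cold 1 and -0.18 without cold 2. The first probe set of this gene had 526 and 1078 on cold 1 and cold 2, against 585 and 1055 on normal 1 and normal 2. It was split by the number of the array and not by the label: the arrays numbered 1 had 0.488-fold and 0.554-fold the signal of those numbered 2. Its log2 difference was -0.06 with a standard error of 0.53 (adjusted p = 1.0 from limma), and it was 0.46 without cold 1 and -0.58 without cold 2.

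For the duplicate atp1b1b, the probe set had 3122 and 1866 on cold 1 and cold 2, against 2425 and 2371 on normal 1 and normal 2. The normal arrays lay together and between the cold ones, which differed by 1.67-fold. The log2 difference was 0.01 with a standard error of 0.34 (adjusted p = 1.0 from limma) and turned to -0.06 after quantile normalization, to -0.36 without cold 1 and to -0.01 without normal 2, and it was 0.38 without cold 2.

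The beta3 genes gave the smallest and the largest standard error among the 14 probe sets. At atp1b3b the signals were 3460 and 3473 on cold 1 and cold 2, against 3792 and 3988 on normal 1 and normal 2. The cold arrays lay together, at a ratio of 0.996, and both were below the normal arrays. The log2 difference was -0.17 with a standard error of 0.22 (adjusted p = 1.0 from limma), or 0.891-fold with a 95% interval from 0.615 to 1.29. Leaving out each array in turn kept it between -0.20 and -0.13.

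Its duplicate atp1b3a had the largest ratio of highest to lowest array among the members. The first probe set had 381 and 336 on cold 1 and cold 2, against 690 and 220 on normal 1 and normal 2. Normal 1 was 3.14-fold normal 2, and both cold arrays lay between them. At the second the signals were 359 and 601 on cold 1 and cold 2, against 831 and 419 on normal 1 and normal 2, with normal 1 again the highest. The log2 differences were -0.12 and -0.34, with standard errors of 0.59 and 0.52 (adjusted p = 1.0 for each from limma). Without normal 1 they were 0.70 and 0.15, without normal 2 they were -0.95 and -0.84, without cold 1 they were -0.21 and 0.03, and without cold 2 they were -0.03 and -0.72. Both probe sets were lower on cold 1 than on normal 1, at ratios of 0.553 and 0.432, and higher on cold 2 than on normal 2, at ratios of 1.53 and 1.44.

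In set 1, 1 of the 14 probe sets, the second of atp1b3a, was at least 2-fold lower on the cold array, against 5.13% of all tested probe sets, and 0 were at least 2-fold higher, against 8.79% of all. In set 2 a 2-fold difference was reached at 0 of the 14 in either direction, against 2.23% of all probe sets with the cold array higher and 4% with it lower. The median log2 ratio of the 14 was -0.03 in set 1 and 0.26 in set 2, beside 0.06 and 0.00 over all probe sets. For the 4 alpha probe sets the medians were 0.43 in set 1 and 0.32 in set 2, and for the 10 beta probe sets they were -0.14 and 0.18. Unlike the table as a whole, the member probe sets had their smallest median absolute difference between cold 1 and cold 2 (0.20). The value for normal 1 and normal 2 was 0.35, and the pairs of a cold and a normal array lay between 0.32 and 0.36.

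**Figure D3:**
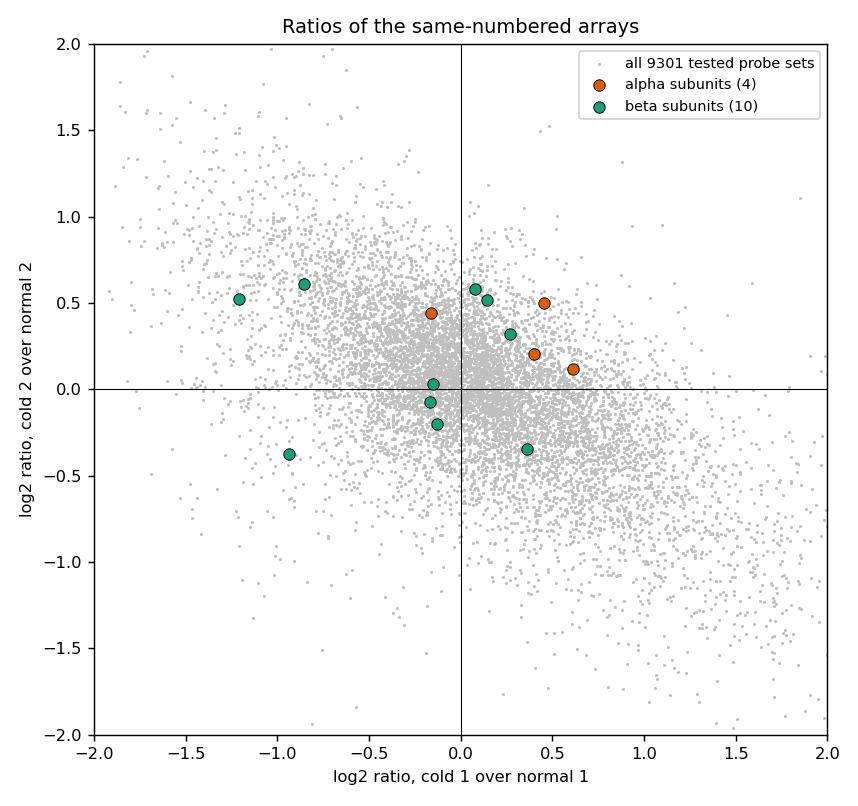
Log2 ratio of cold 1 over normal 1 (horizontal axis) and of cold 2 over normal 2 (vertical axis) for all 9301 tested probe sets (grey), the 4 alpha probe sets (orange) and the 10 beta probe sets (green), with 141 grey points outside the axes. The grey points run from upper left to lower right, and of the members 6 lie above 0 on both axes, 3 lie below 0 on both and 5 lie above 0 on only 1 axis.

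Summed markers of other cells, each gene at its brightest probe set, differed between the arrays too, and their part in the values above was not tested. In bulk brain RNA, fewer cells of a type and less RNA per cell cannot be told apart. The summed signal of the 4 red blood cell markers on the array, of 5 chosen, was 19390 and 11870 on cold 1 and cold 2, against 13610 and 20610 on normal 1 and normal 2. Each of the 4 was higher on cold 1 and normal 2 than on the other arrays. The sum was mostly hbaa1, and the other genes differed more between arrays. The widest was slc4a1a, with 603 and 60.7 on cold 1 and cold 2, against 141 and 587 on normal 1 and normal 2. Muscle markers (4 of 6 on the array) summed to 2613 and 552 on cold 1 and cold 2, against 634 and 623 on normal 1 and normal 2, so cold 1 stood apart. Astroglia markers (5 of 7, all above the filter) summed to 17870 and 17170 on cold 1 and cold 2, against 13450 and 18120 on normal 1 and normal 2, and neuron markers (7 of 7) to 24010 and 20860, against 18190 and 22430. Normal 1 was the low array for both sums, as it was for atp1a1b, but not for every gene in them: gfap, an astroglial filament gene, had 376 and 666 on cold 1 and cold 2, against 1069 and 357 on normal 1 and normal 2, and elavl3, elavl4, stmn2a and s100b were not lowest on normal 1 either. Epithelial markers (5 of 5 on the array, with epcam under the filter) summed to 1764 and 2296 on cold 1 and cold 2, against 1331 and 1624 on normal 1 and normal 2. Most of that difference was from krt5, with 496 and 914 on cold 1 and cold 2, against 114 and 249 on normal 1 and normal 2, while krt8 was lower on the cold array in both sets, at ratios of 0.995 and 0.892.

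The oligodendrocyte, endothelial, microglial and ependymal lists were less complete. Oligodendrocyte markers (3 of 5 on the array) summed to 12940 and 9575 on cold 1 and cold 2, against 10300 and 11710 on normal 1 and normal 2. The microglia markers (3 of 4, csf1ra under the filter) summed to 1612 and 2681, against 2646 and 2147. That sum was mostly apoeb, and the other genes went opposite ways. The signals of lcp1 were 229 and 335, against 222 and 228, and those of csf1ra 54 and 61, against 72 and 82. The only endothelial marker on the array, kdrl, had 347 and 233, against 149 and 283. The ependymal ones (2 of 3, tekt1 under the filter) summed to 166 and 163, against 168 and 165. The photoreceptor markers crx, gnat1, gnat2 and opn1sw1 were under the filter, with sums of 227 and 186 on cold 1 and cold 2, against 182 and 238 on normal 1 and normal 2.

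Further subunits and partners of the pump were read from a list of 21 symbols, of which 9 had probe sets and 4 of 10 probe sets passed the filter. The alpha1 genes of the tandem cluster, atp1a1a.2, atp1a1a.3, atp1a1a.4 and atp1a1a.5, were under the filter. Among the FXYD proteins, small membrane proteins that adjust the activity of the pump, fxyd3 had 1190 and 584 on cold 1 and cold 2, against 565 and 888 on normal 1 and normal 2. It followed neither the label nor the number, and fxyd6l had 197 and 117, against 109 and 135, with the arrays in the same order. The NKAIN proteins are known in mammals to bind the beta1 subunit. The brighter probe set of nkain1 had 709 and 757 on cold 1 and cold 2, against 499 and 602 on normal 1 and normal 2, with both cold arrays above both normal ones, and nkain2 had 77.4 and 100.3, against 73.7 and 73.0, in the same way. All 4 tested probe sets had positive log2 differences, from 0.23 to 0.42, as had 5370 of all 9301, and 0 passed an adjusted p of 0.05 from limma. Of the 4, 2 had both cold arrays above both normal ones, against 9.2% of all tested probe sets, and 0 had them below, against 6.45% of all. The ratios of cold to normal were 2.11 in set 1 and 0.658 in set 2 for fxyd3, and 1.81 and 0.869 for fxyd6l.

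Related ion pumps and carriers were counted in the same way, and 0 probe sets of any list passed an adjusted p of 0.05 from limma. Of 14 tested probe sets of other P-type ATPases, the enzyme class of the pump, 2 had both cold arrays above both normal arrays, against 9.2% of all tested probe sets, and 3 had them below, against 6.45% of all. Their median log2 difference was 0.04, with a range from -0.95 to 0.71. The 4 brightest genes, atp2b3a, atp2b2, atp2b1a and atp2b4, encode calcium pumps of the plasma membrane, and the 3 probe sets below were of atp2b1a and atp2b4. At the brightest probe set of atp2b1a the signals were 777 and 458 on cold 1 and cold 2, against 1458 and 913 on normal 1 and normal 2, lower in both sets. Its next brightest probe set overlapped between the groups, with 733 and 278 on cold 1 and cold 2, against 409 and 665 on normal 1 and normal 2. The dimmest tested probe set of atp2b1a overlapped too, with a log2 difference of -0.15 and a standard error of 0.27. It had 95.3 and 87.3 on cold 1 and cold 2, against 109.6 and 93.75 on normal 1 and normal 2. For atp2b4 the brightest probe set had 333 and 282 on cold 1 and cold 2, against 504 and 448 on normal 1 and normal 2. The next had 204 and 138, against 389 and 213. Both were lower in both sets, with log2 differences of -0.63 and -0.78 and standard errors of 0.39 and 0.45 (adjusted p = 1.0 for each from limma). The dimmest tested probe set of atp2b4 overlapped between the groups, with a log2 difference of 0.11. It had 120 and 55.5 on cold 1 and cold 2, against 84.3 and 68.0 on normal 1 and normal 2. The V-type ATPase, a proton pump of synaptic vesicles and lysosomes, had 14 tested probe sets with 2 above, against 9.2% of all, 3 below, against 6.45% of all, and a median of 0.01. Of its 4 brightest genes, atp6v0cb was among those above and atp6v1g1 among those below, and atp6v1e1b and atp6v1f overlapped.

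Carriers that run on the sodium gradient, or move chloride, protons and bicarbonate beside it, were read from 44 symbols. Of these, 9 genes had probe sets on the array, and 8 of 13 probe sets passed the filter. Of the 8, 0 were above, against 9.2% of all tested probe sets, and 0 below, against 6.45% of all. Their median log2 difference was 0.02. Genes of glial potassium and glutamate clearance were read from 15 symbols, of which 4 genes had probe sets on the array. These were glula, slc1a2b, glulb and slc1a3a, all genes of glutamate uptake or glutamine synthesis, so potassium clearance was not read. Their 4 tested probe sets had a median of 0.12, and 0 were above and 0 below, against the same shares of all. Among them slc1a2b, the main glial glutamate transporter gene, had 4250 and 6377 on cold 1 and cold 2, against 2765 and 5640 on normal 1 and normal 2, again with normal 1 lowest. The creatine and adenylate kinases, which buffer ATP, had 8 tested probe sets with a median of 0.31. Of these, 2 were above, against 9.2% of all tested probe sets, and 0 below, against 6.45% of all. Both probe sets above were of muscle-type creatine kinase genes, ckma and ckmb. For ckma, also on the muscle marker list, the signals were 563 and 163 on cold 1 and cold 2, against 144 and 152 on normal 1 and normal 2, so cold 1 stood apart as it did for the summed muscle markers. Brain-type ckbb, the brightest of the list, had 7239 and 7769 on cold 1 and cold 2, against 6659 and 7429 on normal 1 and normal 2. The kinases and ligases chosen as possible regulators of the pump (9 of 20 symbols on the array) had 7 tested probe sets. All 7 overlapped, as did 7845 of all 9301. All 7 had opposite directions in the 2 sets, against 69.6% of all. For sgk1, a kinase that raises the number of pumps at the membrane in mammalian epithelia, the signals were 1473 and 2570 on cold 1 and cold 2, against 2115 and 1877 on normal 1 and normal 2.

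**Figure D4:**
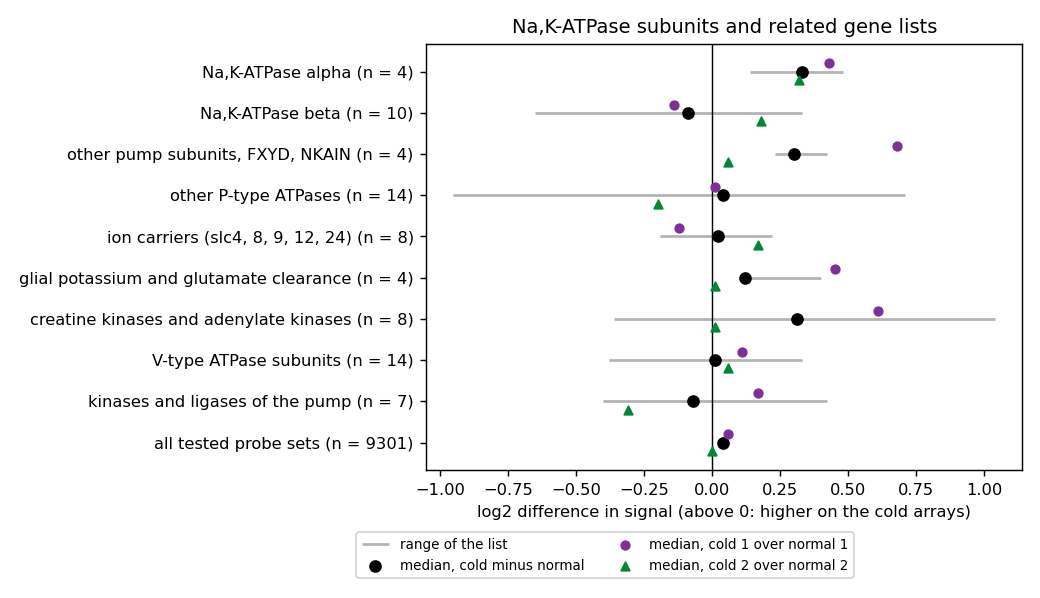
Median log2 difference in signal, cold minus normal, of the Na,K-ATPase alpha and beta probe sets, of each related gene list and of all tested probe sets (black points), with the range of that difference within a list (grey lines) and the median log2 ratio of cold 1 over normal 1 (purple circles) and of cold 2 over normal 2 (green triangles); n is the number of tested probe sets. The alpha subunits have their 3 medians at 0.32 to 0.43, and the medians of all probe sets lie between 0.00 and 0.06.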

How the data were processed

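Pooled brain RNA of cold-acclimated and of normal zebrafish was hybridized to 1-colour Affymetrix arrays, 2 per condition. The labels do not state whether the 2 arrays of a condition held RNA of separate groups of fish. The authors computed signals with Gene Chip Operating Software (MAS5 in the submitters' processing notes, version not given) and deposited 1 intensity per probe set for 15617 probe sets. No source names the scaling target, detection calls or a filter on the deposited table, and global scaling would hide a shift of most transcripts in 1 direction. Trimmed means of the signals (2% at each end) lay between 241 and 254, a ratio under 1.2, so arrays were not scaled further.

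After 115 control probe sets were left out, log2 signals were tested with limma (version 3.58.1, under R 4.3.3) as an unpaired, two-sided comparison by lmFit and trended eBayes, with Benjamini-Hochberg adjustment over the 9301 probe sets whose mean was at or above the 40th percentile, and the script was tested on simulated data. The methods' SAM program was not run. The platform table gives 1 symbol for 10795 probe sets, several for 135 and none for 4572, and a GRCz12tu gene table, used for names only, held 10711 of the 10795. All member probe sets were named, and for other lists up to 4 genes with the highest mean signal. Further genes of those lists (atp1a1a genes and other genes given as under the filter, ckma, gfap, elavl3 and elavl4) were named after their values were seen. The members and lists were chosen with earlier results of these data known. Array number limits the precision. Alternatives are given in the closing section.

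The numbers in the labels do not state a pairing. Deviations of same-numbered arrays from their group means correlated at r = -0.295. With 2 arrays per group the deviations mirror each other, so cold 1 and normal 2 gave 0.295 by construction. The ratios by set all rest on same-numbered arrays.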

Additional observations from a re-analysis of the deposited data

How the results depend on the processing

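No member probe set passed an adjusted p of 0.05 after quantile normalization or median centring, with 16 added to the signals, without the filter or with one at the 60th percentile, without a variance trend, with 1 probe set a gene, or without any 1 array. With the replicate block the count was 0 of 9301 probe sets, as without it. The numbers may be crossed, and the block with crossed numbers, added after the data were seen, called 1 of 9301 probe sets and 0 members. Other scalings moved the median of all probe sets to between 0.01 and 0.04. Quantile normalization turned the log2 difference of atp1b1b to -0.06, and the other 13 kept their sign under every scaling tried.

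The lowest and highest log2 differences, leaving out 1 array at a time, were -0.11 and 0.38 for the second probe set of atp1a3a, -0.58 and 0.46 for the first of atp1b1a, -0.36 and 0.38 for atp1b1b, -0.95 and 0.70 for the first of atp1b3a, and -0.84 and 0.15 for its second. The other 9 kept their sign. Member probe sets with the cold arrays above the normal ones then numbered 6 to 7, against 27.2 to 38.4% of all probe sets, and those below 2 to 6, against 23.7 to 27.6%, with 4 without either cold array and 6 without normal 2. With 1 array left in a condition, non-overlap is easier to reach. The number of arrays, 2 per condition, limits what can be detected.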
